A study of Mus musculus with 19 samples.

Results

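Cystic embryoid bodies (EBs) grown from the mouse embryonic stem (ES) cell clone A9 were compared with fetal liver of the embryonic stage E12.5 to ask which genes of hepatocytes and of blood cells, the main cell populations of the fetal liver, the cystic EBs express. The comparison uses 4 of the 19 samples of the series, all of them RNA-seq libraries made with the ScriptSeq v1 kit from RNA depleted of ribosomal RNA. Cystic EBs are hollow, fluid-filled aggregates that form when ES cells are cultured in suspension without the factor LIF. The A9 clone came from a C57Bl/6x129 cross, is a single clone, and gave 1 library after 10 days (d10) and 1 after 15 days (d15) of differentiation. The liver libraries A and B came from FVB embryos, with a whole litter pooled for each sample. The labels name no transgene and no drug for either group. Strain, culture and tissue therefore differ together between the groups and cannot be told apart. The p-values below measure only the spread between libraries and not between independent clones. This spread was pooled over those groups of the fit of 11 RNA-seq libraries that hold more than 1 library. The A9 libraries differ in day, so the day difference is part of their spread. Values of other groups are given beside some results: cystic EBs of a second C57Bl/6x129 clone, JN, at d10 and d15, and FVB yolk sac endoderm of E9.25 and E12.5 and yolk sac mesoderm of E9.25. The study prepared its RNA-seq libraries by several methods, and the method used for these other libraries is not given here. Where it differs, library preparation cannot be told apart from clone or tissue. Genes were followed on 21 lists of hepatocyte, blood, stromal and EB genes. Of 408 names on the lists, 402 were matched to an autosomal gene in the table of 22128 such genes, 6 were X-linked or not matched, and 396 passed the filter on low counts. Of the matched genes, 7 were on 2 lists or more, so the counts of some lists share genes.

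At E12.5 the liver is both a young gland and the main site of blood formation of the embryo. Its hepatoblasts secrete the proteins of the plasma, such as albumin, alpha-fetoprotein, transferrin and the apolipoproteins, under transcription factors such as HNF4A, FOXA and CEBPA, while the definitive erythroblasts that fill the organ make adult-type globins. Embryonic globins belong to the primitive red cells, which arise in the yolk sac and circulate through the embryo. Yolk sac endoderm, an extra-embryonic tissue, makes many of the same plasma proteins, and yolk sac mesoderm makes the first, primitive blood.

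The 4 libraries held 47818368 to 63798810 counts, and the ribosomal transcript Rn45s took 2.94% of them in A9 d10, 7.35% in A9 d15, 0.497% in liver A and 0.484% in liver B. The 2 A9 libraries correlated at r = 0.971 and the 2 liver libraries at r = 0.973 across transcripts on a log2 scale of depth-scaled counts, which describes libraries and tests nothing. In a fit over all 11 RNA-seq libraries, 4599 of 17907 autosomal genes tested (25.7%) were higher in A9 cystic EBs and 4165 (23.3%) were lower, at a false discovery rate (FDR) of 5% in edgeR's quasi-likelihood test, adjusted after Benjamini and Hochberg, which stands behind every adjusted p below. The median fitted log2 fold change of all these genes, A9 minus liver, was 0.09. Higher genes made up 52.5% of the calls, against 62.9% when limma was run on log2(RPKM + 1) and 64.3% on log2(RPKM + 0.1). Scaling by library totals moved the median of all genes to 0.22 and limma on log2(RPKM + 0.1) moved it to 0.31. The list counts below are to be read against these shares. Fewer cells of a type and less RNA per cell cannot be told apart in such bulk libraries.

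The labels were first set against marker genes. Alb (chr5:90460870-90476602), the gene for albumin, was at 358 RPKM (reads scaled to transcript length and library depth) in liver A and 767 in liver B, and at 0.015 in A9 d10 and 0.812 in A9 d15. Ahsg (chr16:22892015-22899451), which encodes the plasma protein fetuin-A, was at 46.9 and 115 RPKM in liver and at 0.118 and 0.237 in the cystic EBs. Hba-a1 (chr11:32283672-32284486), an adult-type alpha-globin gene, was at 867 and 1739 RPKM in liver and at 0.651 in A9 d10 and 0.031 in A9 d15. All 3 were far higher in both liver libraries than in either A9 library. Tdgf1 (chr9:110939608-110946158), a co-receptor for Nodal found in early embryonic cells, was at 31.2 RPKM in A9 d10 and 41.7 in A9 d15 and had 0 counts in both liver libraries. Its level in the cystic EBs was at least 3440-fold higher, computed against 3 counts over the liver group. Coordinates are those of GRCm38.p6.

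**Figure D1:**
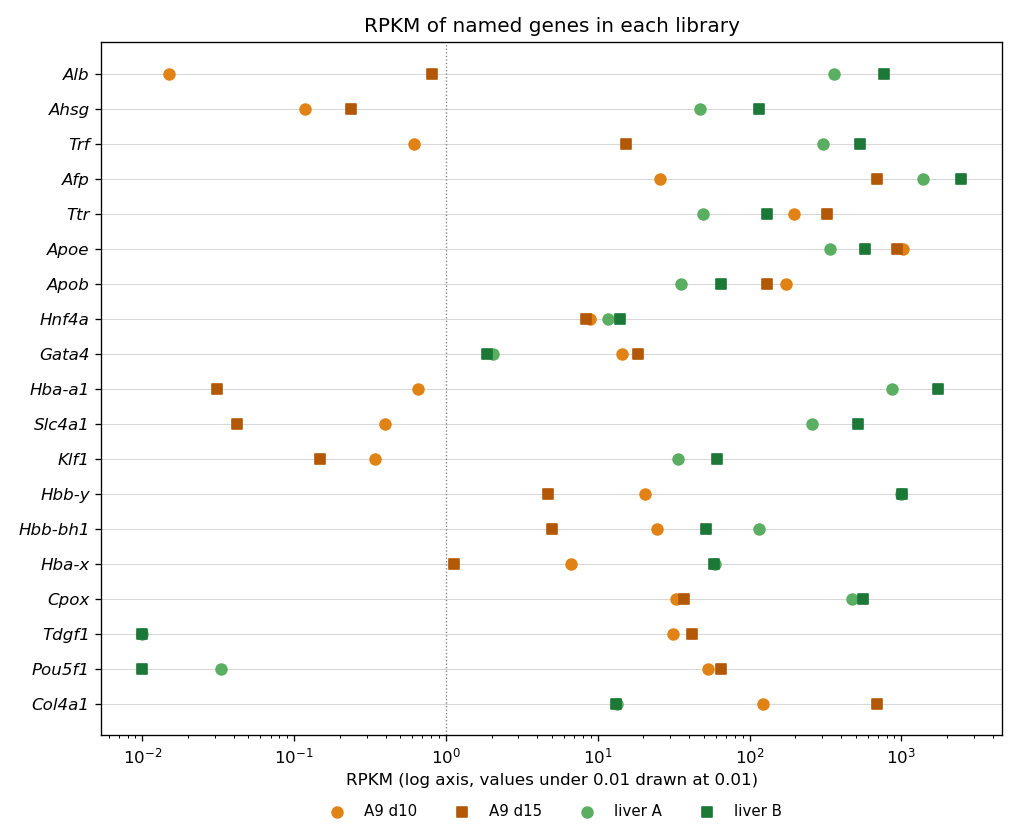
RPKM (log axis) of 19 named genes in the 4 libraries, circles for A9 d10 and liver A and squares for A9 d15 and liver B, with values under 0.01 drawn at 0.01. Alb, Ahsg, Hba-a1, Slc4a1 and Klf1 lie below 1 RPKM in both A9 libraries and above 30 in both liver libraries, while Apoe and Ttr lie above 100 in both A9 libraries.

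A9 cystic EBs expressed a part of the plasma protein genes of liver in both libraries, and others in 1 library or in neither. Of 46 plasma protein genes, 31 were lower and 5 higher in the cystic EBs and 10 were not called, with a median log2 fold change of -4.29, or -4.18 with the 3 genes of at most 3 counts in a group at their bound or count ratio, against 0.09 over all genes. Counting as expressed a gene with at least 1 RPKM in both libraries of a group, 41 were expressed in liver, and 17 of these (41.5%) were expressed in A9 cystic EBs as well, where 90.5% of the 9960 autosomal genes expressed in liver also were. Counting genes at 1 RPKM in either A9 library, 27 of the 46 reached it, 10 of them in 1 library only, such as Trf, Fga, Hpx, Ambp and Serpina1b in A9 d15 and Plg and Gc in A9 d10.

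Apoe had the highest mean level of these genes in the cystic EBs. Apoe, a ligand for lipoprotein receptors, was at 1027 and 930 RPKM in A9 d10 and d15 and at 339 and 576 in liver A and B (log2 fold change 0.80, SE 0.28, edgeR adjusted p = 0.0364). Apob, the scaffold of very low density and low density lipoproteins, was at 175 and 130 RPKM in A9 and at 35.5 and 65.1 in liver (1.30, SE 0.42, edgeR adjusted p = 0.0282). Apoa4, a component of intestinal and liver lipoproteins, was at 20.1 and 40.9 RPKM against 2.02 and 8.31 (2.29, SE 0.62, edgeR adjusted p = 0.0132). In each of the 3 genes both A9 libraries lay above both liver libraries. Each of these calls was lost when single libraries were left out. The edgeR adjusted p was 0.204 for Apoe, 0.161 for Apob and 0.0503 for Apoa4 without liver A, 0.0925 for Apoe and 0.0941 for Apob without A9 d10, and 0.0807 for Apoe and 0.0776 for Apoa4 without A9 d15. With the cystic EBs of the other clone, JN, added it was 0.667, 0.395 and 0.182, and on the 4 ScriptSeq libraries alone it was 0.0684 for Apoe. Fetub and Apoc3, the other 2 genes called higher, stayed below 1 RPKM in every A9 and liver library.

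Ttr, which encodes the carrier of thyroid hormone and retinol binding protein, was at 196 and 322 RPKM in A9 and at 49.2 and 130 in liver. The groups did not overlap, and the difference was not called (log2 fold change 1.25, SE 0.60, edgeR adjusted p = 0.111), though limma on log2(RPKM + 0.1) called it higher (adjusted p = 0.0451). Rbp4, Apom, Apoa2 and Apoc2, chosen after their values were seen, were also expressed in both A9 libraries and not called, with Rbp4, the retinol carrier, at 34.4 and 104 RPKM against 174 and 224 in liver. Apoa1, also chosen after its values were seen, the main protein of high density lipoprotein, was at 50.4 and 122 RPKM in A9 and 145 and 278 in liver and was called lower (-1.57).

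A second set of plasma protein genes was close to silent in the cystic EBs. Itih1 and Apoh, which encode a hyaluronan-binding inhibitor chain and a phospholipid-binding protein, had 2 and 1 counts over both A9 libraries and were at 12.3 and 19.97 and at 9.59 and 29.4 RPKM in liver. The liver to A9 ratio of counts was 3300 for Itih1 (95% counting interval 914 to 27300) and 3000 for Apoh (538 to 118000). Serpina6, the corticosteroid binding globulin, was at 0.022 and 0.096 RPKM against 67.8 and 136, and Itih3, Itih4, C3, Pzp and Serpina1a were likewise below 1 RPKM in both A9 libraries and called lower. These genes, too, were chosen after their values were seen. Trf, which encodes transferrin, the iron carrier of plasma, was among the genes between the sets, at 0.617 RPKM in A9 d10 and 15.4 in A9 d15 against 305 and 530 in liver (log2 fold change -5.96, SE 1.34, edgeR adjusted p = 0.00504).

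**Figure D2:**
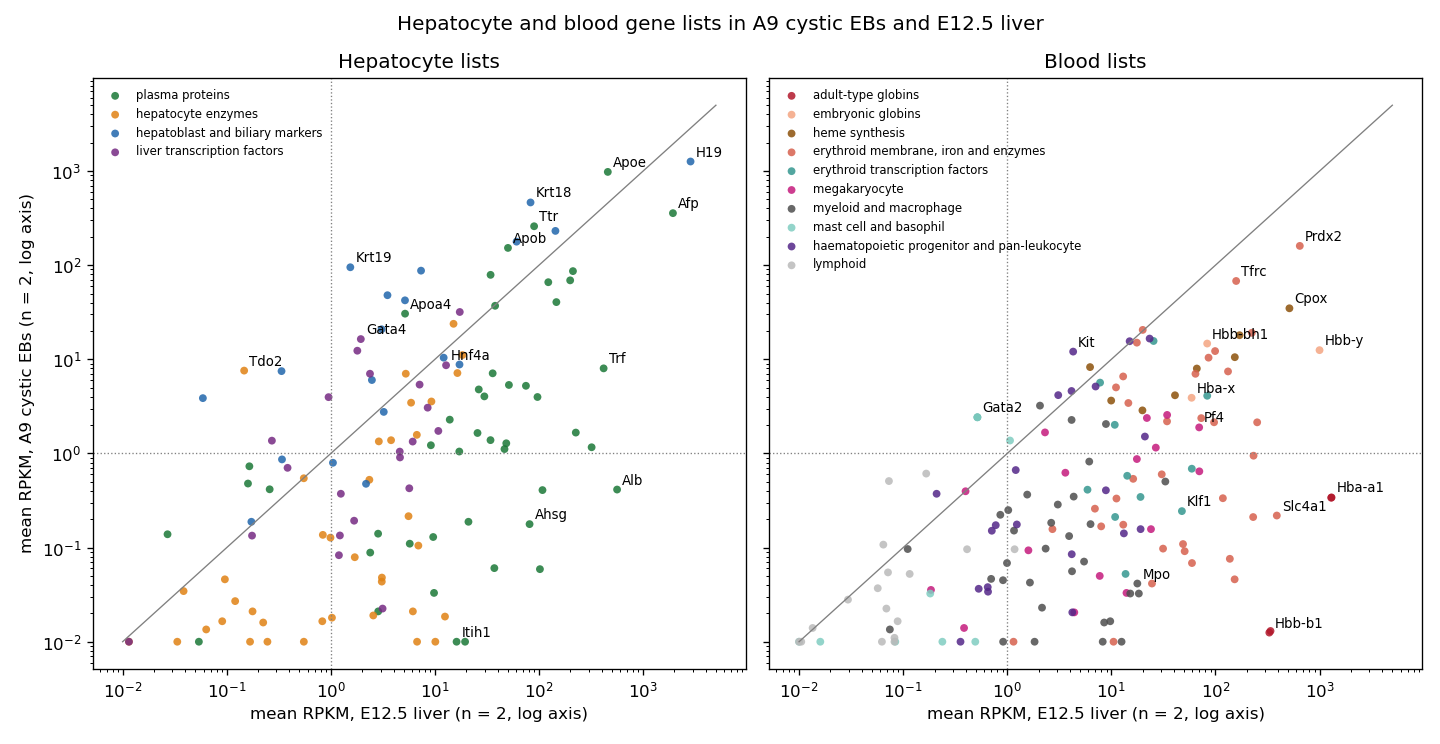
Mean RPKM in E12.5 liver (x, 2 libraries, log axis) against mean RPKM in A9 cystic EBs (y, 2 libraries, log axis) for the genes of the hepatocyte lists (left) and the blood lists (right), 1 point per gene, coloured by list, with means under 0.01 drawn at 0.01. The solid line marks equal levels and the dotted lines 1 RPKM. Apoe, Ttr and Apob sit above the line of equal levels and Alb, Ahsg and Itih1 far below it, and most blood genes lie below the line, with Kit, Gata2 and Thy1, the 3 called higher, among those above it.

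Alb and Afp are neighbours on chromosome 5 and members of the same gene family, yet they stood apart in the cystic EBs. Afp, which encodes alpha-fetoprotein, the fetal counterpart of albumin, was at 25.8 RPKM in A9 d10, 688 in A9 d15, 1396 in liver A and 2471 in liver B. Both A9 libraries were below both liver libraries, but the days lay 26.7-fold apart and the difference was not called (log2 fold change -2.69, SE 1.22, edgeR adjusted p = 0.0924). It was called lower with DESeq2 (adjusted p = 0.0288), with limma (0.0413 and 0.0313), with the JN clone added (edgeR adjusted p = 0.0304) and without A9 d15 (-6.58, edgeR adjusted p = 0.00225). Alb was called lower (-10.70, SE 1.19, edgeR adjusted p = 0.000103), its mean RPKM being 1360 times as high in liver as in the cystic EBs, and 54.1 times as high in A9 d15 as in d10, where it had 2 counts. In E9.25 yolk sac endoderm (ysE) the same contrast stood, with Afp at 6071 and 6628 RPKM and Alb at 0.221 and 0.194. The RefSeq promoters of the pair are printed here because they let the genes be seen side by side, from 250 bases before to 50 bases after the start, 5′ to 3′ on the plus strand of GRCm38.p6, at chr5:90460620-90460919 and chr5:90490464-90490763, with the motif GTTAAT in capitals:
Alb: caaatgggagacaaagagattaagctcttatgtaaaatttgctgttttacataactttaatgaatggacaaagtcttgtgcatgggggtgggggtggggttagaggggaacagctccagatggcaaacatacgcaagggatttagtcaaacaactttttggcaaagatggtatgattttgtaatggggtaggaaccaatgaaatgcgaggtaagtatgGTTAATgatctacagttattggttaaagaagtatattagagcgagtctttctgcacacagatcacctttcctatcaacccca
Afp: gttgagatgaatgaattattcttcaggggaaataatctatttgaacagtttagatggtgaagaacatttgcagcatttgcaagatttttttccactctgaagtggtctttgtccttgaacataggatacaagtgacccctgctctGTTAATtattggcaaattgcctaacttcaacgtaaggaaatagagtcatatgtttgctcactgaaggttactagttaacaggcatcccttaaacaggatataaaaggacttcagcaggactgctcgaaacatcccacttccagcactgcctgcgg
Each holds 1 match, searched on both strands. Of 27025 genes in the RefSeq promoter set, which is not limited to the genes of the expression data, 7.20% held this motif. Of the 36 plasma protein genes with a promoter there, 13 (36.1%) did, against 3 of 28 (10.7%) hepatocyte enzyme genes and 2 of 19 (10.5%) pluripotency genes. A match is a description of the letters and shows no binding.

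Most enzyme genes of hepatocyte metabolism were lower in the cystic EBs. Of 38 genes, 20 were expressed in liver and 9 of these in A9, and of 37 tested, 26 were lower, 1 was higher and 10 were not called (median log2 fold change -3.24). Gys2, the liver glycogen synthase, Hpd and Bhmt, chosen after their values were seen, were near 0 in A9 and at 7.51 and 12.7, 2.85 and 10.6, and 4.07 and 8.21 RPKM in liver. Asl, an enzyme of the urea cycle that many tissues use to make arginine, was expressed in both, at 22.9 and 24.7 RPKM in A9 and 12.3 and 17.8 in liver, and was not called (0.36, SE 0.22, edgeR adjusted p = 0.206), though limma called it higher (adjusted p = 0.0354 and 0.0298). Gstz1, an enzyme of tyrosine breakdown, was at 10.6 and 11.6 against 15.0 and 21.7 RPKM and was called lower (-1.02, SE 0.29, edgeR adjusted p = 0.0153), a call lost without A9 d10 (edgeR adjusted p = 0.0739) and without liver B (0.102), and with limma (0.0759 and 0.071).

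The 1 enzyme gene that rose was Tdo2, tryptophan dioxygenase, an enzyme of adult hepatocytes that the decidua and other tissues also make. It was at 9.99 RPKM in A9 d10 and 5.18 in A9 d15 and at 0.101 and 0.193 in liver, so that the liver value was the low one (5.40, SE 0.72, edgeR adjusted p = 0.000279). In the E9.25 yolk sac mesoderm it was at 150 and 117 RPKM, against 4.38 and 6.30 in the endoderm. Genes that mark the mature organ, among them G6pc, Tat, Cyp2e1 and Cyp7a1, were below 1 RPKM in all 4 libraries, liver included.

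The transcription factors of liver were split. Of 21 factors tested, 11 were lower in A9 cystic EBs, 5 were higher and 5 were not called (median log2 fold change -1.77), and 8 of the 15 that liver expressed were expressed in A9. Gata4, a zinc finger factor of endoderm and heart, was at 14.4 and 18.4 RPKM against 2.03 and 1.85 in liver (2.78, SE 0.23, edgeR adjusted p = 2.37e-05), and Gata6, its relative, at 11.4 and 13.3 against 1.96 and 1.63 (2.48). Foxa2, a pioneer factor of endoderm, was at 6.97 and 7.09 RPKM against 2.28 and 2.48 (1.26, edgeR adjusted p = 0.0168), a call lost without A9 d15 (0.0533), liver A (0.0745) or liver B (0.0658). Cebpb, a factor of many cell types, was at 2.72 and 5.204 RPKM against 0.996 and 0.906 (1.77). For these 4 genes each A9 library exceeded each liver library.

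Hnf4a, a nuclear receptor central to hepatocyte identity that ysE expresses as well, was expressed in all 4 libraries, at 8.93 and 8.36 RPKM against 11.6 and 14.0. The difference was not called by edgeR (-0.87, SE 0.34, adjusted p = 0.0571) and was called lower by DESeq2 (-0.92, adjusted p = 0.0188). It was also called lower by edgeR with RLE size factors (adjusted p = 0.0459), without the filter on low counts (0.0401), on the 4 ScriptSeq libraries alone (0.0143) and with the JN clone added (0.0294). Xbp1, a factor of secretory cells, was at 23.8 and 39.8 RPKM against 14.6 and 20.04 and was not called (0.59, edgeR adjusted p = 0.0901), though it was called higher without A9 d10 (0.95, edgeR adjusted p = 0.0094), with library totals (0.0326) and with limma (0.0258 and 0.0204). Creb3l3, a factor of liver lipid metabolism, fell by 2.93 on the log2 scale, from 8.79 and 12.8 RPKM in liver to 1.61 and 1.86 in A9, and Nr5a2, which regulates bile acid genes, was at 2.75 and 3.38 against 7.17 and 9.85 (-1.77). Cebpa, chosen after its values were seen, which drives hepatocyte maturation, was at 0.330 and 0.523 RPKM against 4.68 and 6.66 (-4.03).

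The list of hepatoblast and biliary markers went the other way as a whole, though not in every member, with 9 of 19 genes higher, 2 lower and 8 not called (median log2 fold change 1.03). The genes that rose were Cdh1, Epcam, Krt7, Krt8, Krt18, Krt19, Cldn3, Spp1 and Tbx3, of which the keratins, the cadherin and the claudin are found in simple epithelia of many organs. Dlk1 and Cldn1, chosen after their values were seen, did not rise. Dlk1 was at 7.04 and 10.6 RPKM against 12.98 and 21.5 in liver and was not called (-1.26, SE 0.49, edgeR adjusted p = 0.0589). Cldn1 was at 0.176 and 0.776 RPKM against 1.87 and 2.49 and was called lower (-2.48). Krt18 and Krt8, the keratins of simple epithelia, were at 389 and 538 and at 149 and 206 RPKM in A9, against 69.1 and 96.6 and 58.9 and 62.7 in liver (2.19 and 1.25). Krt19, a keratin of ducts and of yolk sac and gut epithelia, was at 59.2 and 131 RPKM against 1.92 and 1.15 (5.65, SE 0.46, edgeR adjusted p = 1.98e-05). Epcam, an adhesion molecule of epithelial and ES cells, was at 75.4 and 99.5 RPKM against 12.6 in liver A and 2.07 in liver B (3.26). The imprinted genes Igf2, a fetal growth factor, and H19, a non-coding RNA, were abundant in both tissues. Igf2 was at 247 and 215 RPKM against 114 and 173 and was not called (0.39, edgeR adjusted p = 0.454), and H19 was at 908 and 1616 against 2772 and 2937 and was called lower (-1.47, edgeR adjusted p = 0.01, 0.0539 without A9 d10 and 0.0523 with the JN clone added).

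**Figure D3:**
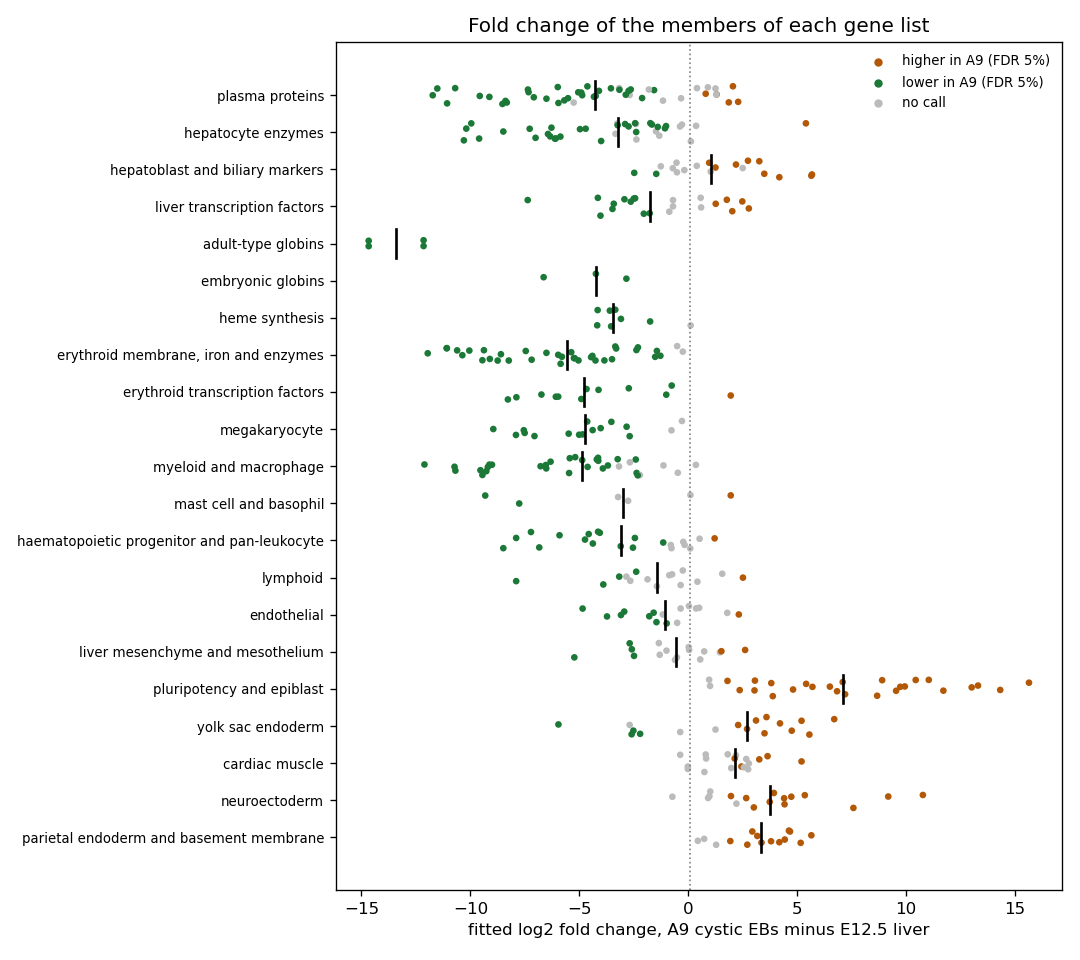
Fitted log2 fold change, A9 cystic EBs minus E12.5 liver (x), of each tested member of the 21 gene lists (y), 1 point per gene, brown for genes called higher and green for genes called lower at an FDR of 5%, grey for the rest. Black bars are list medians and the dotted line is the median of all autosomal genes, 0.09. Adult-type globins lie furthest left (median -13.41) and pluripotency genes furthest right (7.09), and fitted values of genes with 0 counts in a group depend on the fit and are no bounds.

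Most blood genes of liver were lower in A9 cystic EBs, and a part of them was expressed there. Over the 10 blood lists together, 120 of 153 genes tested were lower, 3 were higher and 30 were not called. Their median log2 fold change was -4.24, or -4.16 with 20 genes at their bound or count ratio. A9 expressed 42 of the 114 blood genes that liver expressed (36.8%), against 90.5% of all autosomal genes expressed in liver. Over the 4 hepatocyte lists 70 of 123 genes tested were lower and 20 higher (median log2 fold change -2.48). Of the 90 hepatocyte-list genes that liver expressed, A9 expressed 47 (52.2%). The 3 blood genes called higher were Kit, Gata2 and Thy1, and none of them was called higher without A9 d15 or without liver A.

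Adult-type globins had the lowest median of the 21 lists, -13.41. Hba-a1 was called lower (-12.15, SE 0.80, edgeR adjusted p = 7.85e-06), its mean RPKM being 3820 times as high in liver. The A9 mean behind this ratio rests on 23 counts in d10 and 1 in d15, at 0.651 and 0.031 RPKM, 21-fold apart. Hba-a2 had the same counts within 2, so reads of these near-identical copies were not told apart and the values of either are uncertain. Hbb-b1 and Hbb-b2, adult-type beta-globins, had identical counts, 1 in A9 d10, 0 in A9 d15, 10000 in liver A and 23053 in liver B, and are likewise 1 measurement. The liver to A9 ratio of these counts was 26900 (95% counting interval 4820 to 1060000). Adult-type globins were thus at no more than 0.651 RPKM in an A9 library, while Hba-a1 was at 3.31 and 6.27 RPKM in JN d10 and d15.

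Embryonic globins, the globins of primitive red cells, were expressed in the cystic EBs, though below liver. Hbb-y, an embryonic beta-globin, was at 20.3 RPKM in A9 d10 and 4.69 in A9 d15 and at 995 and 1004 in liver (-6.64, SE 0.65, edgeR adjusted p = 5.54e-05). Hbb-bh1, another embryonic beta-globin, was at 24.4 and 5.01 RPKM against 115 in liver A and 51.8 in liver B (-2.84, SE 0.67, edgeR adjusted p = 0.00638). Hba-x, the embryonic alpha-globin, was at 6.67 and 1.14 RPKM against 59.4 and 58.6 (-4.24, SE 0.61, edgeR adjusted p = 0.000444). The order of the globins in A9 was therefore embryonic above adult-type in both libraries, with Hbb-bh1 and Hbb-y close to each other, whereas in liver Hba-a1 was above Hba-x and Hbb-y was above Hbb-b1. In yolk sac mesoderm, which carries primitive blood, Hbb-bh1 was at 21222 and 16453 RPKM and Hbb-y at 18741 and 13955. The adult-type Hba-a1 was not particular to liver, as it was at 1916 and 1857 RPKM there, above both liver libraries. Hbb-b1 was at 13.8 and 19.8 RPKM there, below both. With the JN clone added Hbb-bh1 was no longer called (edgeR adjusted p = 0.0754), JN d10 and d15 being at 32.6 and 71.0 RPKM.

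To show an adult-type next to an embryonic beta-globin, the RefSeq promoters of Hbb-bs, listed in the table as Beta-s, and of Hbb-y are printed from 250 bases before to 50 after the start, 5′ to 3′ on the minus strand of GRCm38.p6, at chr7:103827879-103828178 and chr7:103853158-103853457. Capitals mark CCACACCC, a CACC box of the kind that KLF1 binds:
Hbb-bs: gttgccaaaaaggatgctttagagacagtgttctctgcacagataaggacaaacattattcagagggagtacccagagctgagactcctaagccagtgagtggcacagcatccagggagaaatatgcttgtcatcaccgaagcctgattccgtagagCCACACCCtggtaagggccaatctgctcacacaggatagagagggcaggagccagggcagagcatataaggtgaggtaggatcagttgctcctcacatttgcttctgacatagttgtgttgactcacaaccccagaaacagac
Hbb-y: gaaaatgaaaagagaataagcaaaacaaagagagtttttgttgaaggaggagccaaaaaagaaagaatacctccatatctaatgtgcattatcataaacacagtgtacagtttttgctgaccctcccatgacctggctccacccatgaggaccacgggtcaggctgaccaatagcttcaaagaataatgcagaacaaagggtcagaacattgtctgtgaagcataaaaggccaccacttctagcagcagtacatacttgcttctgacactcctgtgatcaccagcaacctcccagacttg
The first holds 1 match and the second 0 on either strand, which says only that these exact letters are absent from this window. Other forms of a CACC box were not searched for. The motif was found in 3.57% of 27025 promoters and in 1 of 4 promoters of adult-type globins, 0 of 2 of embryonic globins and 0 of 25 of the genes of red cell membrane, iron uptake and enzymes. Beta-s had 1 count in A9 d10 and 0 in A9 d15 and was at 132 and 292 RPKM in liver, a ratio of counts of 17800 (95% counting interval 3190 to 702000). In E9.25 yolk sac mesoderm Beta-s was at 134 and 196 RPKM. Klf1, which encodes the erythroid factor, was at 0.340 and 0.148 RPKM in A9 and 34.0 and 61.2 in liver (-7.89, SE 0.46, edgeR adjusted p = 4.94e-06).

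Heme synthesis, which every cell needs and red cells need most, was present at a base level. All 8 enzyme genes were expressed in both tissues, 7 of them were lower in A9 and 1, Alas1, the first enzyme in cells other than red cells, was not called. Cpox, coproporphyrinogen oxidase, was at 32.9 and 36.7 RPKM in A9 and 472 and 555 in liver (-4.18, SE 0.20, edgeR adjusted p = 2e-06). Urod, which makes coproporphyrinogen, was at 18.6 and 17.4 against 115 and 226 (-3.54), and Fech, which inserts the iron, at 8.73 and 7.23 against 47.5 and 84.97 (-3.35). None of the 8 differed 2-fold between the A9 days.

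Of 36 genes of the red cell membrane, iron uptake and red cell enzymes, 34 were lower in A9, none was higher and 2 were not called (median log2 fold change -5.58), and 16 of the 35 that liver expressed were expressed in A9. Slc4a1, the anion exchanger band 3, was at 0.396 and 0.042 RPKM in A9 and 259 and 518 in liver (-11.09, SE 0.88, edgeR adjusted p = 1.89e-05). The spectrin genes Spna1 and Spnb1, which form the membrane skeleton, were at 1.12 and 0.775 and at 3.01 and 1.28 RPKM in A9, against 175 and 290 and 210 and 293 in liver (-8.24 and -7.19). Prdx2, a peroxiredoxin found in most cells, was at 168 and 152 RPKM against 523 and 769 (-2.31). The expressed members included Tfrc, the transferrin receptor used by growing cells, at 75.8 and 60.1 RPKM against 127 and 189, and Cat, catalase, at 17.1 and 24.0 against 15.8 and 24.3, both chosen after their values were seen. Cat was not called.

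Erythroid transcription factors followed, with 11 of 12 lower and 1 higher. Tal1, a master factor of blood, was at 1.05 and 0.328 RPKM in A9 and 54.9 and 63.7 in liver (-6.74, SE 0.50, edgeR adjusted p = 1.4e-05), and its partner Lmo2, which endothelium also uses, was at 6.24 and 1.96 against 82.3 and 84.3 (-4.67). Ldb1, a widely expressed adaptor of the same complex, was at 17.0 and 14.3 RPKM against 25.6 and 25.3 (-1.01). Gata2, a factor of progenitors, mast cells and endothelium, was the 1 that was higher, at 1.69 and 3.16 RPKM against 0.326 and 0.707 (1.95, SE 0.60, edgeR adjusted p = 0.0226), a call lost without A9 d15 (0.134) or liver A (0.123) and with the JN clone added (0.316).

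Among other blood cells, 14 of 16 megakaryocyte genes, 27 of 33 myeloid and macrophage genes and 14 of 21 progenitor and pan-leukocyte genes were lower in A9, against 23.3% of all autosomal genes. Of 15 lymphoid genes tested 4 were lower, a share near that of all genes, 1 was higher and 10 were not called. Of 6 mast cell and basophil genes tested 2 were lower, 3 were not called and 1 was higher, Gata2, the same gene as on the erythroid factor list. Liver itself expressed 1 of the lymphoid genes and 0 of the mast cell and basophil genes. Pf4, platelet factor 4, was at 1.05 and 2.73 RPKM in A9 and 46.3 and 93.2 in liver (-5.49), and Itgb3, a platelet integrin that other cells share, at 1.36 and 3.77 against 33.2 and 35.5 (-4.02). Tubb1, the platelet tubulin, was at 0.844 and 0.447 RPKM against 60.3 and 79.7 (-7.06), and Itga2b, the partner of Itgb3, at 1.77 and 0.539 against 26.01 and 27.4 (-4.85).

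Of the myeloid genes, Cd5l, a product of liver macrophages, was at 0.031 and 0.034 RPKM in A9 and 10.2 and 20.2 in liver (-9.13), and Mpo, the peroxidase of granulocyte precursors, at 0.062 and 0.021 against 15.7 and 19.9 (-9.01). S100a9, a calcium-binding protein of neutrophils, had a liver to A9 ratio of counts of 588 (95% counting interval 163 to 4860), and Lyz2, lysozyme of macrophages, was at 0.180 and 0.826 RPKM against 22.3 and 43.7 (-6.32). Only 2 of the 33 were expressed in both A9 libraries, Cd68, a lysosomal protein, and Mrc1, the mannose receptor, named after their values were seen. In either A9 library 4 reached 1 RPKM, the other 2 being Csf1r and Tyrobp, at d15 only and also named after their values were seen. Csf1r was at 0.657 and 3.88 RPKM against 3.31 and 4.99, and Tyrobp at 0.251 and 1.39 against 5.92 and 6.34. Neither was called, and both were higher at d15 than at d10 in JN as well.

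Ikzf1, a factor of white blood cells, was at 0.101 and 0.213 RPKM in A9 and 18.2 and 20.01 in liver (-7.22), and Spn, leukosialin, at 0.186 and 2.84 against 20.2 and 21.8 (-4.06). Kit, the stem cell factor receptor, which germ cells, melanoblasts and ES-derived cells also carry, was at 7.56 and 16.6 RPKM in A9 and 3.90 and 4.69 in liver (1.21, SE 0.37, edgeR adjusted p = 0.0218), a call lost without A9 d15 (0.241), liver A (0.102) or liver B (0.0654) and on the 4 ScriptSeq libraries alone (0.0585). Meis1 and Lcp1, which many cell types express, were not called, Meis1 at 18.6 and 14.6 RPKM against 32.7 and 14.0, though it was called lower without liver B (-1.30, edgeR adjusted p = 0.0209), and Lcp1 at 10.4 and 20.8 against 12.7 and 17.3. Cpa3, a mast cell protease, had 0 counts in A9 and was at 0.508 and 0.478 RPKM in liver, at least 32.5-fold higher there, and Ms4a2, the mast cell IgE receptor chain, at least 11.1-fold higher, a call lost without A9 d10 (edgeR adjusted p = 0.0816), A9 d15 (0.0775) or liver A (0.0621). Hdc, which makes histamine, was at 0.459 and 2.29 RPKM against 0.848 and 1.28 and was not called, and without A9 d15 it was called lower (-1.56, edgeR adjusted p = 0.0324). Of the lymphoid genes, none was expressed in A9 and 1 was in liver, Cd3g, at 1.30 and 1.05 RPKM (-3.90, edgeR adjusted p = 0.0180), a call lost without A9 d10 (0.0603), A9 d15 (0.0904) or liver A (0.0528). Cd79b, of B cells, was at 0.119 and 0.073 against 0.395 and 0.427 (-2.39, edgeR adjusted p = 0.00792, 0.0534 without A9 d15 and 0.125 with the JN clone added), while Cd4 and Ebf1 were not called by edgeR, and limma called Ebf1 higher (adjusted p = 0.0307 and 0.0189).

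Of 16 endothelial genes 8 were lower, 1 was higher and 7 were not called (median log2 fold change -1.08). Stab2, a scavenger receptor of sinusoidal endothelium, was at 0.684 and 0.380 RPKM in A9 and 10.1 and 14.8 in liver (-4.85, SE 0.57, edgeR adjusted p = 0.000136). Among genes that were not called, Tek, the angiopoietin receptor, was at 9.72 and 7.07 RPKM against 8.89 and 10.5 (-0.51, SE 0.35, edgeR adjusted p = 0.244), and Egfl7, a secreted vascular protein, at 27.9 and 23.1 against 17.9 and 22.6. Kdr, the main VEGF receptor, was at 19.01 RPKM in A9 d10, 3.10 in A9 d15 and 11.8 and 10.6 in liver, so the A9 days lay on either side of liver, and without A9 d10 it was called lower (-2.11, edgeR adjusted p = 0.00455). Flt1, a VEGF receptor that parietal endoderm and trophoblast also express, was higher in A9, at 12.9 and 17.1 RPKM against 2.299 and 2.597 (2.32, SE 0.23, edgeR adjusted p = 6.38e-05).

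Of 16 genes of liver mesenchyme and mesothelium, 4 were lower, 2 higher and 10 not called (median -0.57). Reln, reelin, a product of hepatic stellate cells, was at 2.41 and 0.712 RPKM in A9 and 45.0 and 48.5 in liver (-5.23), and Alcam, an adhesion molecule of the mesothelium, at 3.37 and 4.42 against 19.7 and 15.99 (-2.49). Acta2, smooth muscle actin, was at 67.4 and 32.4 RPKM against 9.56 and 3.50 (2.61, edgeR adjusted p = 0.00837, and 0.0590 without liver B), and Podxl, a surface protein of mesothelium and also of ES cells and endothelium, at 151 and 94.4 against 36.1 and 32.9 (1.52, edgeR adjusted p = 0.000316, and 0.161 with the JN clone added). Col3a1, a collagen of connective tissue, was at 47.5 and 109 RPKM against 72.6 and 52.1 and was not called.

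Genes of the early embryo were the list with the highest median. Of 27 pluripotency and epiblast genes 25 were higher in A9, 0 were lower and 2 were not called (median log2 fold change 7.09, or 6.5 with 11 genes at their bound or count ratio), and 22 were expressed in A9 against 2 in liver. Pou5f1, the pluripotency factor OCT4, was at 53.4 and 64.6 RPKM in A9 and 0.033 and 0.010 in liver (11.04, SE 0.60, edgeR adjusted p = 3.9e-06). Lin28a, an RNA-binding protein of early embryos, was at 88.7 and 41.5 RPKM against 1.30 and 1.15 (5.41), and L1td1, an RNA-binding protein of ES cells, at 27.0 and 34.7 against 0.367 and 0.062 (6.83).

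Genes of the parietal endoderm and its basement membrane were higher for 12 of 15 members, with 0 lower (median 3.36). Sparc, a matrix protein, was at 321 and 1360 RPKM in A9 and 51.4 and 48.1 in liver (3.80, SE 0.60, edgeR adjusted p = 0.000726). Col4a1 and Col4a2, chains of collagen IV, were at 122 and 693 and at 98.0 and 375 RPKM against 13.5 and 13.1 and 11.4 and 10.1 (4.67 and 4.18), and Lamb1, a laminin chain, at 96.2 and 364 against 10.0 and 7.58 (4.43). These genes are made by many epithelia and endothelia and were expressed in liver too, for 12 of 15.

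Of 17 yolk sac endoderm genes 10 were higher, 4 lower and 3 not called (median 2.70). Car4, a membrane carbonic anhydrase, was at 52.9 and 30.8 RPKM in A9 and 3.69 and 1.86 in liver (3.59, SE 0.43, edgeR adjusted p = 0.000152), while Slc39a8, a metal ion transporter, was at 44.9 and 27.2 against 36.6 and 38.6 and was not called, though it was called lower without A9 d10 (-0.73, edgeR adjusted p = 0.0277). Of 17 neuroectoderm genes 12 were higher, among them Stmn2, a neuronal tubulin regulator, at 6.71 and 9.10 RPKM against 0.486 and 0.103 (4.42), and Tubb3, neuronal tubulin, at 2.20 and 3.77 against 0.710 and 0.046 (2.66, edgeR adjusted p = 0.0412), a call lost without A9 d15 (0.134) or liver B (0.0876) and on the 4 ScriptSeq libraries alone (0.1). Nes and Mtap2 were not called, though Nes was called lower without A9 d10 (-1.28, edgeR adjusted p = 0.0478) or liver B (-1.19, 0.0416) and Mtap2 higher without liver A (1.68, 0.0270) and with limma (0.0259 and 0.0366). Of 18 cardiac muscle genes 5 were higher and 13 were not called (median 2.16). Myl3, a ventricular light chain, was at 13.9 and 47.9 RPKM against 1.04 and 0.321 (5.2), Tnnc1, cardiac troponin C, at 30.8 and 12.97 against 4.75 and 3.24 (2.13), and Myl4, an atrial light chain, at 31.6 and 7.36 against 2.22 and 0.979 (3.26, edgeR adjusted p = 0.0196), a call lost without A9 d10 (0.128) or liver B (0.119). Tnnt2, cardiac troponin T, was at 34.1 and 10.3 against 6.09 and 1.598 and was not called. Liver A had more of the cardiac and neural transcripts than liver B, 0.0292% of counts against 0.0073% on the cardiac list and 0.0128% against 0.00513% on the neural list, and less of the plasma protein transcripts, 1.21% against 1.96%. Of 46 plasma protein genes 45 were higher in liver B. The part of tissue other than liver in library A was not tested.

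The 5 protein-coding genes with the largest fitted change upward in A9, with libraries that did not overlap and at least 5 RPKM in the higher group, all had 0 counts in liver: Tdgf1, Tdh, which encodes the threonine dehydrogenase of ES cells and yolk sac, Otx2, a factor of epiblast and anterior endoderm, Dppa5a, an ES cell RNA-binding protein, and Dynlt1b, a dynein light chain. Against 3 counts over the liver group they were at least 3440-fold, 1400-fold, 699-fold, 555-fold and 494-fold higher. Dynlt1b has near-identical copies among which reads can be split, so its value is uncertain. It was also at 20.1 and 31.8 RPKM in JN d10 and d15, and at no more than 0.272 in any FVB yolk sac library. A part of strain in this difference was not tested. The 5 largest changes downward were 4 adult globin transcripts (Hbb-b2, Hbb-b1, Beta-s and Hba-a2) and Mbl1, a mannose-binding lectin of liver, which had 0 counts in A9 and was at 9.40 and 15.0 RPKM in liver, at least 499-fold higher there.

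The genes lower in A9 than in liver were split by the layers of the E9.25 yolk sac, where endoderm and mesoderm with its blood were sequenced apart. The layers were contrasted in the same fit, so that the filter, scaling and spread were shared with the A9 and liver libraries. Of all autosomal genes tested, 21.5% were higher in endoderm and 20.8% higher in mesoderm. Of the 4165 genes lower in A9 than in liver, 890 (21.4%) were on the endoderm side, 1099 (26.4%) on the mesoderm side and 2176 (52.2%) on neither. Of those that liver expressed, A9 also expressed 81.3% on the endoderm side (619 of 761), 55.0% on the mesoderm side (458 of 833) and 83.2% of the rest (1501 of 1805). The median log2 fold change was -1.37 on the endoderm side and -2.34 on the mesoderm side. The size of the endoderm side depended on scaling, with 503 genes when library totals were used in place of TMM factors, when the mesoderm side held 1351. The lists were set against the same contrast of layers with all their tested genes, whatever the call in A9 against liver. Of 46 plasma protein genes 34 were higher in endoderm and 1 in mesoderm, and of the 153 blood genes tested 102 were higher in mesoderm and 6 in endoderm.

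The 17 genes expressed in liver and A9 had a median of 728 RPKM in E9.25 ysE (range 2.04 to 6350), and 16 of them had at least 10 RPKM there. The 24 genes expressed in liver but not in both A9 libraries had a median of 2.57 RPKM (range 0.0155 to 1070), with 7 of 24 at 10 RPKM or more. Median levels in liver were 51.4 RPKM for the first set and 27.6 for the second. Alb and Ahsg, at 0.221 and 0.194 and at 0.040 and 0.072 RPKM in E9.25 ysE, had reached 80.5 and 152 RPKM in the 1 library of E12.5 ysE. Trf, at a mean of 1066 RPKM in E9.25 ysE, was the highest of the second set. These are descriptions over genes of the same few libraries, with no test.

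**Figure D4:**
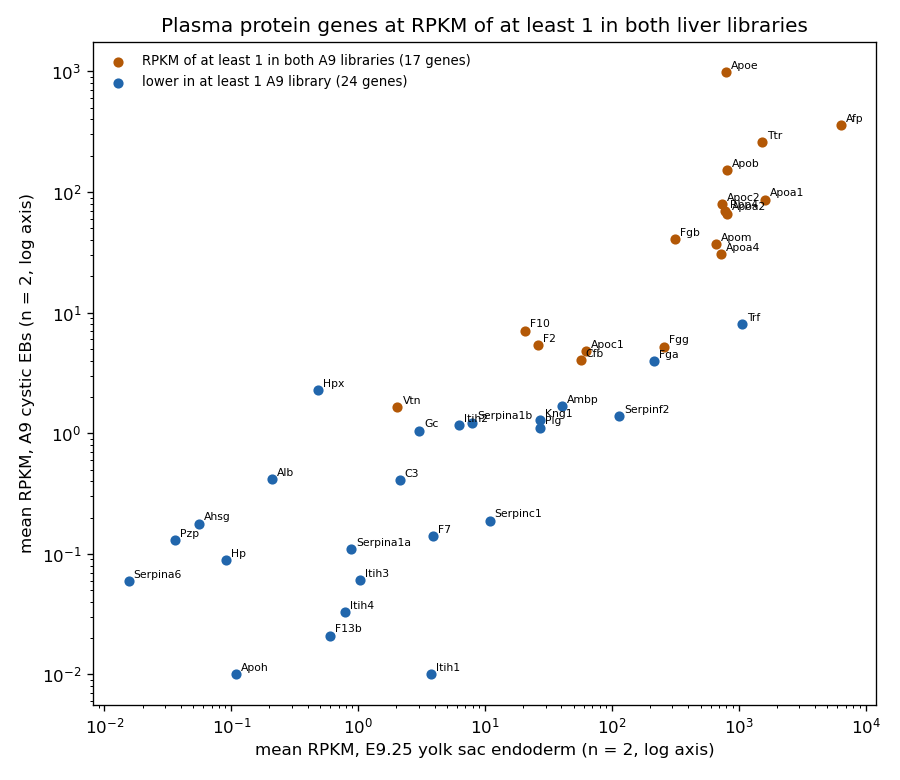
Mean RPKM in E9.25 yolk sac endoderm (x, 2 libraries, log axis) against mean RPKM in A9 cystic EBs (y, 2 libraries, log axis) for the 41 plasma protein genes expressed in both liver libraries, brown where both A9 libraries reached 1 RPKM (17 genes) and blue otherwise (24 genes), with means under 0.01 drawn at 0.01. The brown genes sit at high yolk sac levels, with Vtn at 2.04 RPKM as the exception, and Alb, Ahsg, Serpina6 and Apoh sit at low levels on both axes.

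The days of the A9 culture differed in which of these genes they carried, with 1 library a day and no test. Among autosomal genes with at least 1 RPKM in either A9 library, 5.39% were at least 2-fold higher at d15 and 3.87% at least 2-fold lower. Of 27 plasma protein genes 18 were at least 2-fold higher at d15 and 0 lower, and all 18 were also higher at d15 than at d10 in the JN clone. The highest ratios were those of Afp (26.7-fold), Serpina1b (26.4-fold, from 0.089 to 2.35 RPKM) and Trf (25-fold). A gene was counted at 1 RPKM on either day, so some, such as Serpina1b and Trf, entered by their d15 value alone, which favours a rise. The shares of all autosomal genes were taken by the same rule. Of 13 genes of the parietal endoderm and basement membrane 11 were at least 2-fold higher at d15, as Col4a1 (5.69-fold) was, and 7 of these were higher at d15 in JN. All 3 embryonic globins, 11 of 15 cardiac genes and 4 of 10 endothelial genes were at least 2-fold lower at d15, and none of these 18 was lower at d15 in JN. Kdr was 6.14-fold lower and Hbb-y 4.34-fold lower at d15. None of the 13 liver transcription factor genes was 2-fold higher at d15, and none of the 8 heme synthesis genes moved 2-fold either way.

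**Figure D5:**
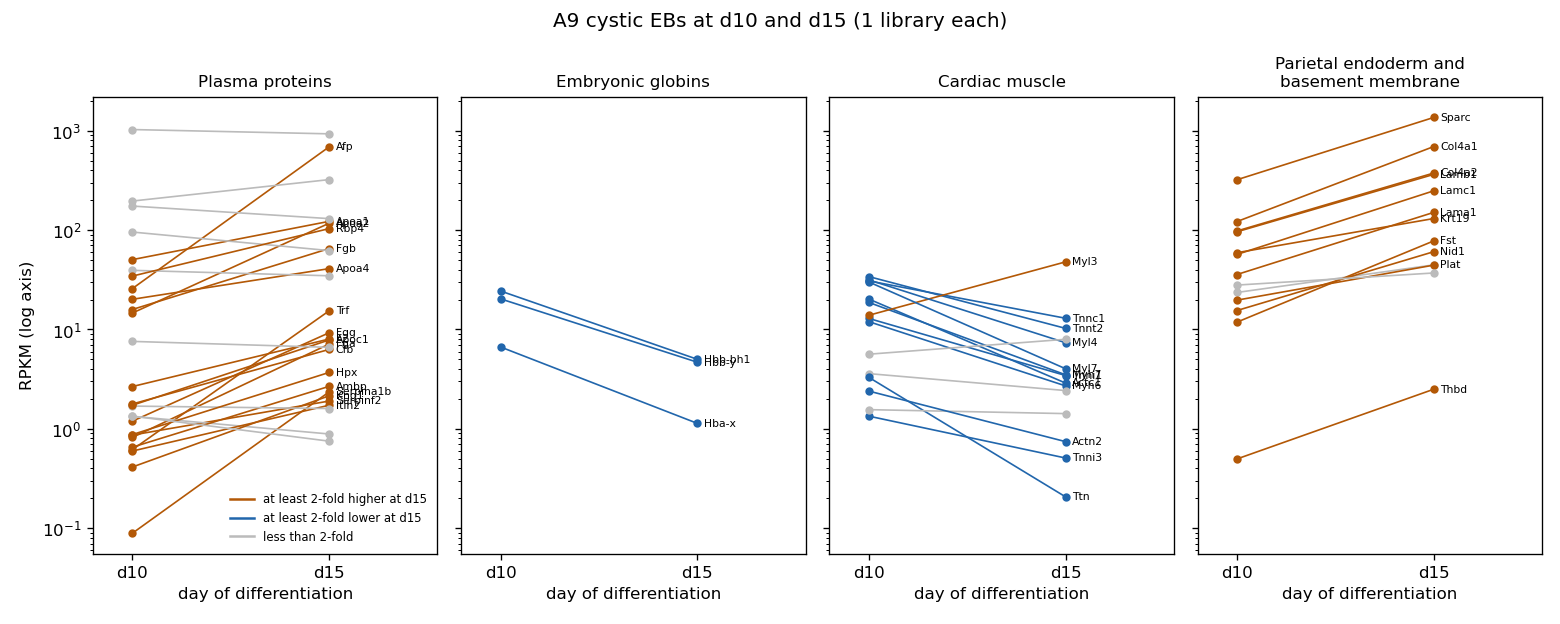
RPKM (log axis) of A9 cystic EBs at d10 and d15 for the genes of 4 lists with at least 1 RPKM on either day, 1 line per gene and 1 library per day, brown where d15 was at least 2-fold higher, blue where it was at least 2-fold lower and grey otherwise. Most plasma protein and basement membrane genes rise to d15, and the 3 embryonic globins and 11 of 15 cardiac genes fall.

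By share of all counts, plasma protein genes took 0.522% of A9 d10 and 0.657% of A9 d15, against 1.21% and 1.96% of liver A and B, and 4.04% and 3.97% of E9.25 ysE. Genes of the red cell membrane, iron uptake and red cell enzymes took 0.119% and 0.0963% of A9 and 1.44% and 2.09% of liver. Over the 4 hepatocyte lists the mean share was 1.35% in A9 and 2.81% in liver, and over the 10 blood lists 0.184% and 2.61%. Of the hepatocyte lists, the hepatoblast and biliary markers, with H19, Igf2 and the keratins, took 0.577% of A9 d10 and 0.842% of A9 d15, and the hepatocyte enzymes 0.0147% and 0.0154%.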

How the data were processed

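RNA-seq libraries of cystic EBs, E12.5 liver and yolk sac layers were read from 2 tables that the authors deposited. The authors aligned reads with GSNAP and counted them per RefSeq transcript without normalization, and these deposited counts were used for all tests. The deposited RPKM values, which the authors made from the same transcripts, were used for levels. Each gene was represented by its autosomal transcript with the highest mean count. Libraries of the comparison held 47818368 to 63798810 counts, and 3 counts correspond to 0.0470 to 0.0627 CPM. Intervals and floors cover counting error only.

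Counts of all 11 libraries in 6 groups were filtered with filterByExpr, scaled by TMM and fitted with edgeR 4.0.16 (quasi-likelihood, R 4.3.3), with Benjamini-Hochberg adjustment and an FDR of 5%. Alternatives were DESeq2 1.42.0, other scalings and filters, limma 3.58.1 on log2(RPKM + 1) and log2(RPKM + 0.1), other sample sets and each library left out. On simulated data the edgeR fit recovered 10.6%, 80.6% and 98.5% of genes changed by a log2 fold of 1, 2 and 3, with 3 false calls among 21713. The simulation gave all groups the same baseline and every gene the same coefficient of variation, 0.277. It changed only 66, 67 and 67 genes by these folds. In the data far more genes were called and the spread differed between genes, so these are not the power and error rate of the calls above. Named genes were the 4 markers, the 4 most abundant of each list, blood and liver genes called higher and expressed in A9, and the 5 largest changes each way, and every other gene named was chosen after its values were seen. Members and lists were chosen with earlier results of these data known. Tables of methylation and histone marks were not used here. Some genes of the lists are counted but not reported by name here.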

Additional observations from a re-analysis of the deposited data

How the results depend on the processing

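Each result was recomputed under other tests, scalings, filters and sample sets. Of the counts that answer a comparison, 164 recomputed values stayed within 1.5 times the reported value and 8 did not. The number of blood genes called higher, 3, ranged from 0 to 3 when single libraries were left out. With 3 RPKM in place of 1 as the threshold of expression, 26 in place of 47 hepatocyte-list genes and 27 in place of 42 blood genes were expressed in both tissues. Of the genes lower in A9 than in liver, 890 were higher in yolk sac endoderm, against 503 with library totals and 522 to 875 with single libraries left out. The cause was not tested.

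Among named genes, 1322 recomputed values kept direction and call, 43 lost the call, 27 gained it and 15 changed direction, all 15 in genes that were not called. Hdc was at -0.51 with all 4 cystic EB libraries and between -1.56 and 0.85 with single libraries left out, Lcp1 between -0.88 and 0.22 and Kdr between -2.11 and 0.41. Egfl7 was at -0.02 with DESeq2 and with RLE size factors, at -0.10 with all 4 cystic EB libraries and between -0.11 and 0.18 with libraries left out, and Col3a1 at -0.01, -0.01, -0.44 and between -0.75 and 0.55.

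No paired analysis was possible for A9 against liver, because cultures of an ES clone and pooled FVB litters share no source that would pair their libraries. With a replicate block for the E9.25 yolk sac layers, 774 in place of 890 of the genes lower in A9 than in liver were higher in endoderm and 961 in place of 1099 were higher in mesoderm. The deviations of same-lettered layers correlated at r = -0.0859 over transcripts, so no shared deviation was seen. With a single A minus B difference per layer, this cannot decide whether same-lettered layers came from the same litter.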
